A study of Mus musculus with 5 samples.

Results

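The Vps and Snx genes of the mouse are 65 protein-coding genes whose symbols begin with Vps or Snx followed by a digit. They were picked by name out of 21887 protein-coding genes on mm10, and comprise 35 Vps and 30 Snx genes. The naming rule uses no measured value, but it was chosen with earlier results of these data known. H3K36me3, trimethylation of lysine 36 on histone H3, was profiled by ChIP sequencing with antibody ab9050 in sorted mTEClo from wild-type B6 mice. These cells are thymic medullary epithelium gated as EpCAM+, UEA-1+, Ly51lo and CD80lo. There were 2 ChIP libraries (series 1 and series 2, each from 50000 cells) and 3 input libraries without antibody, with no treatment, second genotype or age given. The values analysed are the broad peaks of the ChIP libraries. Each series is 1 library, so the series are 2 replicates of the same group, and no difference between them can be tested.

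Vacuolar protein sorting (Vps) genes were named from yeast mutants that missorted proteins bound for the vacuole, the counterpart of the lysosome. Their products form retromer, which returns receptors from endosomes, the ESCRT machinery, which sorts ubiquitinated receptors into vesicles inside endosomes, and the HOPS and CORVET tethers, which bring endosomes and lysosomes together for fusion. Sorting nexins (Snx) carry a PX domain that binds phosphoinositides, and many bend or tubulate endosomal membrane. In antigen-presenting cells, endosomes and lysosomes are the compartments where peptides are loaded on MHC class II. H3K36me3 is laid down behind elongating RNA polymerase II, chiefly by Setd2, and usually grows denser along the body of a transcribed gene. The name does not always give the function: Vps72, for example, is a chromatin protein that handles the histone variant H2A.Z.

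Vps and Snx genes held peaks more often than protein-coding genes at large. In series 1, 24 of 65 had at least 1 bp of a peak within their annotated span (36.9%), beside 16.3% of all protein-coding genes. In series 2 the count was 30 (46.2%), beside 19.5%. A peak was present in both series in 17 genes (26.2%), beside 8.42%, and in either series in 37 (56.9%), beside 27.4%. The remaining 28 genes had no peak in either list, which means that they were below detection in these libraries. The lists give no read counts, so depth is unknown and an unmarked gene cannot be told from one sampled too thinly. The libraries are bulk, so fewer marked cells and less mark per cell cannot be told apart.

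Series 1 placed 45 peaks in these genes and series 2 placed 64. Over the 4.50 Mb of their summed spans this is 10.0 peaks per Mb in series 1 and 14.2 in series 2, whereas the spans of all protein-coding genes held 4.97 and 6.19. Peaks covered 0.654% of the Vps and Snx bases in series 1 and 0.576% in series 2, against 0.315% and 0.224% over all genes. Without Vps13d, the gene with the most peaks, the densities were 9.82 and 12.9 peaks per Mb. Among genes that had a peak, the values were less distinctive. The median covered share, the part of a gene's span lying under peaks, was 1.12% for hit Vps and Snx genes and 1.19% for all hit genes in series 1, and 1.05% and 0.635% in series 2. The median of the highest score per hit gene was 24 against 23 in series 1 and 21 against 19 in series 2. The score is the authors' own whole number per peak, and the lowest in either list is 10.

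The counts were higher in longer genes, and members were long. The median span was 36.7 kb for Vps and Snx genes and 17.2 kb for all protein-coding genes. None of the 9 members under 10 kb had a peak, in a class where 3.80% of all genes had one in either series. From 10 to 30 kb, 2 of 21 were hit in both series (9.52%, beside 4.26% of all genes of that length). From 30 to 100 kb the count was 4 of 21 (19.05%, beside 14.3%). At 100 kb or more, 11 of 14 were hit in both (78.6%, beside 33.4%). Peak density was above that of all genes in each of the 3 longer classes in both series, and in the longest it was 8.76 against 3.27 peaks per Mb in series 1 and 14.01 against 4.60 in series 2. No test was made of these differences, since genes are not replicates of a condition.

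**Figure D1:**
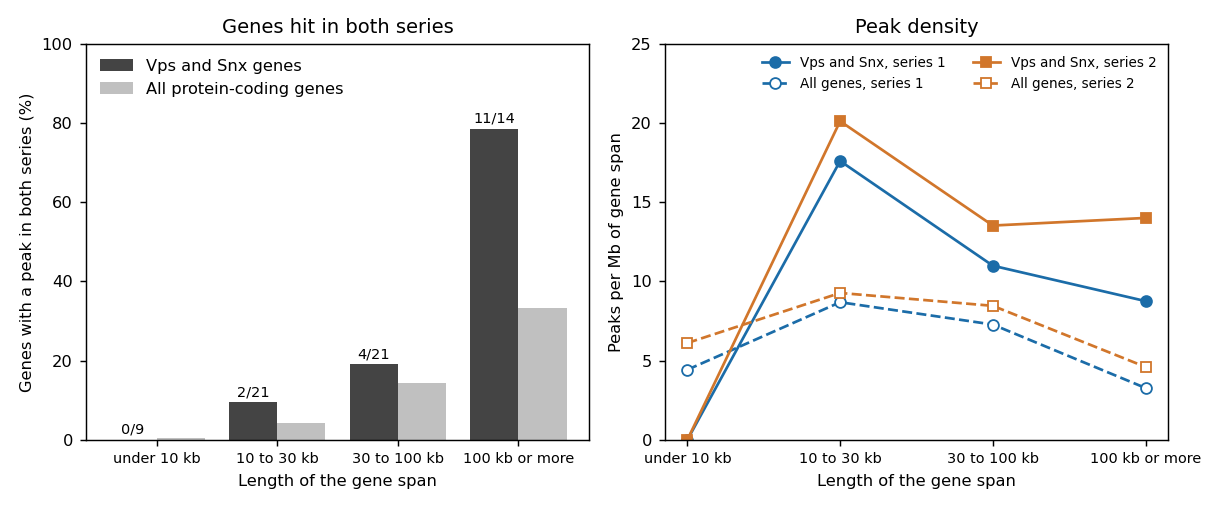
Left, the share of genes with a peak in both series (%) in 4 classes of gene length, for Vps and Snx genes (dark bars, with counts) and all protein-coding genes (grey bars). Right, peaks per Mb of gene span in the same classes, with solid lines for Vps and Snx genes and dashed lines for all genes. Among genes of 100 kb or more, 11 of 14 members were hit in both series, and below 10 kb none of 9 was.

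Peaks in promoter windows were rare in all genes, and the promoter table covers 43 of the 65 members. None of their 53 windows, from 250 bases before to 50 bases after a RefSeq start site, touched a peak in either series. Over all protein-coding genes, 11 of 21263 windows did so in series 1 (0.0517%) and 14 in series 2 (0.0658%). At such shares, a set of 53 windows without a peak is nothing particular to these genes. No difference in promoter sequence between members and all genes was tested. The choice by name did not use the sequences of the member promoters. Their median G and C content was 63.0%, against 56.3% over all windows. The GC box GGGCGG was found on either strand in 31 of the 43 genes (72.1%), against 49.2% of 17492 genes with a window. The ETS motif CCGGAAG was found in 10 (23.3%, against 12.9%), the CCAAT box in 14 (32.6%, against 42.3%) and the TATA box TATAAA in 3 (6.98%, against 14.8%). The E-box CACGTG occurred in 7 (16.3%, against 8.91%). Its longer form TCACGTGA, which contains that E-box and is the core of the CLEAR element described upstream of lysosomal genes, occurred in 3 (6.98%, against 1.41%).

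The 3 genes with the longer form were Vps33a and Vps16, which bind each other in the HOPS and CORVET core, and Vps26a of retromer. Their promoters are shown because they are the members in which this lysosomal element occurs. That of Vps50 is added as an example of an E-box without the full core. Snx5, Snx8 and Snx18 also have such an E-box and are not shown. Of these, Snx5 had 1 peak, in series 2, and Snx8 and Snx18 had none. Sequences are from RefSeq on GRCm38.p6, on the strand of the gene. Capitals mark TCACGTGA in the first 3 and CACGTG in Vps50. Vps33a carries 2 copies, starting 29 and 13 bases before its start site, and Vps16 carries 1 copy starting 19 bases before. In Vps26a the copy in the outermost window, the window shown, starts 183 bases before its start site. Another window of Vps26a, not shown, holds a separate copy starting 152 bases before its own start site. In Vps50 the E-box starts 25 bases after the start site. The windows are chr5:123572966-123573265 (minus strand), chr2:130424070-130424369 (plus), chr10:62486756-62487055 (minus) and chr6:3498143-3498442 (plus), in the order shown.
Vps33a: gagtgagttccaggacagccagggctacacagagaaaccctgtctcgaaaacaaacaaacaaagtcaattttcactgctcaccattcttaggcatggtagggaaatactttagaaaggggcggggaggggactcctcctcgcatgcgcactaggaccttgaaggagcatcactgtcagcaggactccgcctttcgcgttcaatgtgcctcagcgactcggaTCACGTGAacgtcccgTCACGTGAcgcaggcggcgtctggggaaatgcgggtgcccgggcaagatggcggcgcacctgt
Vps16: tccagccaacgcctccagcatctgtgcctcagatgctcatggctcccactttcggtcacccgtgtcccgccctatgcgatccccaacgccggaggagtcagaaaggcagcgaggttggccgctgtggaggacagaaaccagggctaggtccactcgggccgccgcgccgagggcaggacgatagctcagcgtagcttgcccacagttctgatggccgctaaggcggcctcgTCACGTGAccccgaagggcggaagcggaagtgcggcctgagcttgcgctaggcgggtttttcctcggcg
Vps26a: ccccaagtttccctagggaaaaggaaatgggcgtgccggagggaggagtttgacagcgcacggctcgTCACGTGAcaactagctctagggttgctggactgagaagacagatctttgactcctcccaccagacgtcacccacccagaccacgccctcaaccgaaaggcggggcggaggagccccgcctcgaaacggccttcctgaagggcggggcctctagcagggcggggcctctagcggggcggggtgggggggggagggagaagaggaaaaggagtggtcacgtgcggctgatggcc
Vps50: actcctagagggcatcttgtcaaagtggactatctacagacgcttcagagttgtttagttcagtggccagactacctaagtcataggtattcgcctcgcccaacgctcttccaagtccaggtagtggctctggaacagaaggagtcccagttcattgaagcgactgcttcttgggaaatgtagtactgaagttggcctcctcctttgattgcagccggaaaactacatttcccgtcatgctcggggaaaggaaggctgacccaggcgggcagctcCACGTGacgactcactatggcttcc
A match describes these letters and shows no binding. The 4 genes differed in their peaks: Vps33a had 2 in each series, Vps50 had 2 in series 1 and 4 in series 2, Vps16 had 1 in series 2 alone, and Vps26a had none.

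**Figure D2:**
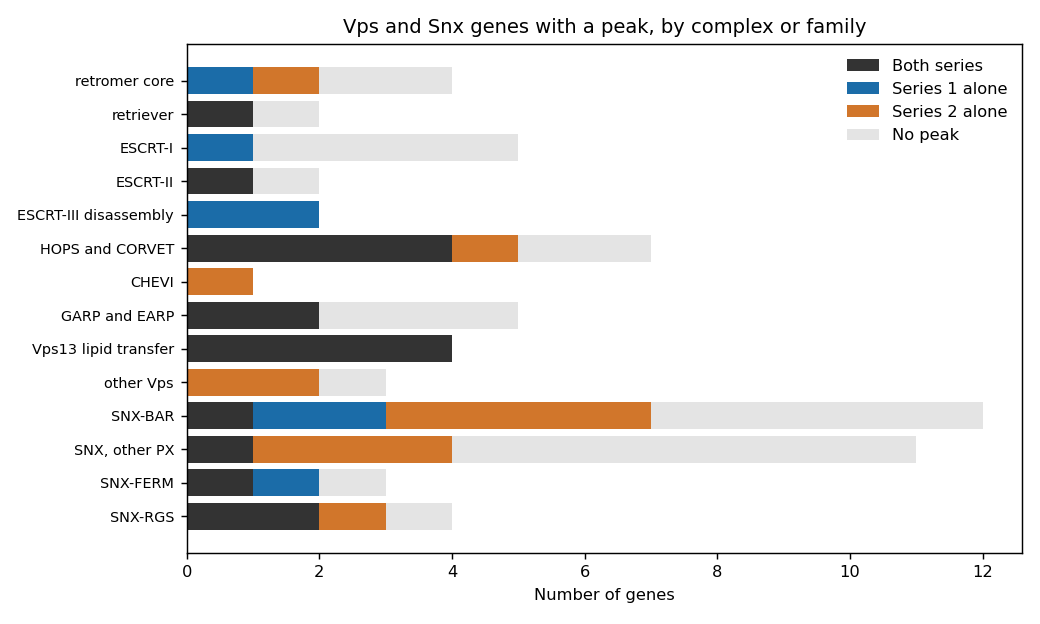
Number of Vps and Snx genes in each complex or family, split into genes with a peak in both series, in series 1 alone, in series 2 alone, or in neither. All 4 Vps13 genes and 4 of 7 HOPS and CORVET genes were hit in both series, and no gene of the retromer core was.

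Retromer is the coat that carries receptors from endosomes back to the Golgi or the plasma membrane. Of its 4 core genes 2 were hit in either series and none in both, and the density was 9.32 peaks per Mb in each series. Vps35, the scaffold subunit, had 1 peak of score 26 in series 2 over 0.555% of its span and none in series 1. Vps26b, of the arrestin-like subunit pair, had the opposite pattern, with 1 peak of score 14 in series 1 over 2.59% and none in series 2. Vps26a, its paralogue, and Vps29, the remaining core subunit, had no peak in either list. The related retriever complex shares Vps29 and replaces the other subunits by Vps35l and Vps26c. Vps35l was hit in both series, over 0.449% of its span by 1 peak in series 1 and over 1.52% by 3 peaks in series 2, 0.983% ± 0.755 (SD, n = 2). Its highest scores were 13 and 20, and no peak of the series coincided. Vps26c had none.

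Among ESCRT genes, Vps36 stood apart by its score. Vps36 encodes the ESCRT-II subunit that binds ubiquitin through its GLUE domain and lies at chr8:22192833-22220953. Series 1 gave it 1 peak of 851 bp with a score of 145, which ranks 16th among the 7231 peaks of that list, and series 2 gave it 1 peak of 435 bp with a score of 27. The covered shares were 3.03% and 1.55%, 2.29% ± 1.05 (SD, n = 2). The peaks do not coincide: they lie 10.5 and 23.2 kb from the 5′ end of the gene, with 12123 bp between them. Vps25, the other ESCRT-II gene named Vps, spans 7.23 kb and had no peak. Of the 5 ESCRT-I genes, Vps37a was hit in series 1 over 2.25% of its span, and Vps28, Vps37b, Vps37c and Vps37d had no peak in either series.

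Vps4a and Vps4b, the AAA ATPases that take ESCRT-III filaments apart, were both hit in series 1 and neither in series 2. Vps4b had 2 peaks over 4.33% of its span and was the second best covered member in that list, with a highest score of 24. Vps4a had 1 peak of 222 bp with a score of 45, over 1.53% of its span. The mean share of Vps4b was 2.16% ± 3.06 (SD, n = 2), a spread larger than the mean, as in every member hit by 1 library alone.

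HOPS and CORVET share a core and tether late and early endosomes respectively. Peaks were found in 4 of the 7 genes in series 1 and in 5 in series 2, and 4 genes were hit by both libraries. Vps11, a core subunit with a span of only 13.93 kb at chr9:44347749-44361673, was the best covered of all 65 genes in series 1. Its 2 peaks of 1010 and 805 bp covered 13.0% of the gene there, and 1 peak of 442 bp covered 3.17% in series 2, 8.10% ± 6.97 (SD, n = 2). Scores were modest, 17 and 20. Vps33a, the Sec1/Munc18-like subunit that binds SNARE proteins, was covered over 2.94% in series 1 and 1.51% in series 2, 2.23% ± 1.02 (SD, n = 2), with highest scores of 38 and 21.

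Vps41, specific to HOPS, spans 149.5 kb and was covered over 1.16% by 3 peaks in series 1 and over 0.291% by 2 in series 2. Vps8, specific to CORVET, had 1 peak in each, over 0.367% and 0.0993% of 221.6 kb. Vps16 was hit in series 2 alone with a score of 13, and Vps18 and Vps39 had no peak. Vps33b, which pairs with Vipas39 in a separate complex, had 2 peaks in series 2, each with a score of 12 and so near the lowest in the list, and none in series 1.

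GARP and EARP tether endosome-derived vesicles at the Golgi and at recycling endosomes and share Vps51, Vps52 and Vps53. Vps50, the EARP-specific subunit, was covered over 0.725% of its span by 2 peaks in series 1 and over 1.71% by 4 in series 2, 1.22% ± 0.693 (SD, n = 2). Its highest scores were 31 and 36. Vps53 was hit once in series 1 and by 2 peaks in series 2, over 0.745% and 0.328%. Vps54, specific to GARP, had no peak in its 82.1 kb, and neither Vps51 (9.35 kb) nor Vps52 (11.3 kb) had one.

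The 4 Vps13 genes, which encode bridge-like proteins that move lipids between membranes, were all hit in both series. They are long, from 157.4 to 560.1 kb, and together held 15 peaks in series 1 and 18 in series 2, or 12.4 and 14.9 peaks per Mb. Vps13d, at chr4:144871045-145195037, had 4 peaks in series 1 and 10 in series 2, the most of any member. Its covered shares were 0.656% and 1.12%, 0.887% ± 0.327 (SD, n = 2). Its peak of 395 bp at chr4:145116603-145116997 had a score of 174 in series 1, the highest among members and 7th in the whole list.

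Vps13a was covered almost equally in the series, over 1.07% and 1.09% of its span, with 4 and 2 peaks and highest scores of 35 and 34. Vps13c, with 2 and 4 peaks, reached 0.866% and 2.65%, 1.76% ± 1.26 (SD, n = 2). Vps13b, the longest member, had 5 and 2 peaks over 0.765% and 0.131%, and its score of 42 was the highest of any member in series 2. Without these 4 genes, 13 of the other 61 members were hit in both series (21.3%), and the densities were 9.11 and 13.97 peaks per Mb.

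The Vps genes outside these complexes had peaks in series 2 alone or not at all. Vps45, another Sec1/Munc18 protein, had 1 peak over 0.379% of its span with a score of 21. Vps9d1, named for its VPS9 domain, had 1 over 1.91% with a score of 24. Vps72 had none.

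**Figure D3:**
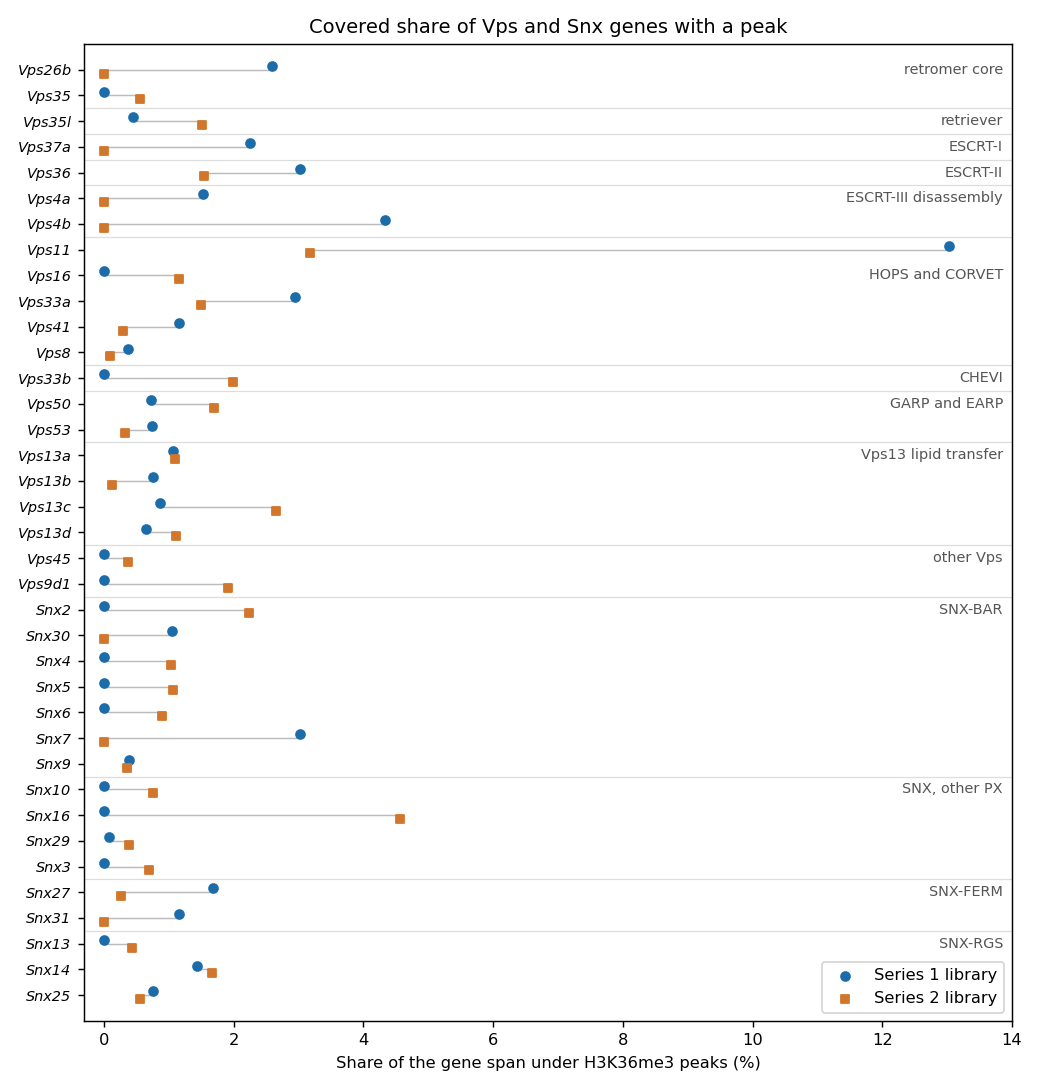
Share of the gene span under peaks (%) for the 37 Vps and Snx genes with a peak in either series, grouped by complex, with a circle for the series 1 library, a square for the series 2 library and a line joining them. Vps11 lies at 13.0% and 3.17%, and all other values are below 5%. In 20 genes 1 of the points is at 0.

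Sorting nexins were hit in both series in 5 of 30 cases (16.7%), against 12 of 35 Vps genes (34.3%) and 8.42% of all protein-coding genes. The 12 include the 4 long Vps13 genes, although the median span was 28.1 kb for Vps and 46.3 kb for Snx genes. The families were not matched for length. In series 1 their density was 6.21 peaks per Mb against 12.9 in Vps genes, and in series 2 it was 12.4 against 15.6. The difference between these families was not tested. The SNX-BAR proteins, which pair a PX domain with a BAR domain that senses curvature, had 7 of 12 genes hit in either series but only Snx9 in both. Snx9, which acts with dynamin in clathrin-mediated endocytosis, had 1 peak of score 18 in each series, over 0.385% and 0.364% of its 90.6 kb. The nexins that form tubules with retromer cargo gave peaks in series 2 alone: Snx2 over 2.24%, Snx5 over 1.06% and Snx6 over 0.897%, while Snx1 and Snx32 had none. Snx4, which works in recycling from endosomes, likewise had 2 peaks in series 2 alone, over 1.03%. Snx7 and Snx30 were hit in series 1 alone, over 3.03% and 1.05%, and Snx7 held the widest member peak, of 1821 bp. Snx8, Snx18 and Snx33 had none.

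Nexins that carry a FERM domain bind sorting signals in the tails of receptors. Snx27, whose PDZ domain links cargo to retromer, was covered over 1.69% by 2 peaks in series 1 and over 0.263% by 1 in series 2. Snx31 was hit in series 1 alone, over 1.16%, and Snx17, the partner of retriever, had no peak in its 5.64 kb. Of the nexins grouped with RGS domain proteins, Snx14, linked to contacts of the endoplasmic reticulum with lipid droplets, was covered over 1.44% and 1.67%, 1.56% ± 0.161 (SD, n = 2). Its highest scores were 47 and 27. Snx25 reached 0.765% and 0.561%, Snx13 had 2 peaks in series 2 alone over 0.432%, and Snx19 had none.

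Of the other PX domain nexins, 1 of 11 genes was hit in series 1 and 4 in series 2, at densities of 1.13 and 10.2 peaks per Mb. Snx29, of 436.2 kb, was covered over 0.0734% by 1 peak in series 1 and over 0.381% by 5 in series 2. Snx16 was covered over 4.57% by a single series 2 peak of 1019 bp, the best covered member in that list, but its score of 13 was low and series 1 had none there. Snx3, which sorts the Wnt carrier Wntless with retromer, had 1 peak in series 2 with a score of 25, and Snx10 had 2, with a highest score of 21. Snx11, Snx12, Snx15, Snx20, Snx21, Snx22 and Snx24 had none. Snx24 (147.0 kb) and Snx12 (133.2 kb, on chromosome X) were the longest members without a peak, followed by Vps54 (82.1 kb), Snx8 (49.0 kb) and Snx19 (40.2 kb).

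Peaks of the series coincided in 5 of the 17 genes hit in both (29.4%). Such coincidence occurred in 1.48% of all protein-coding genes, or 17.6% of those hit in both. The strongest was in Vps13d, where the series 2 peak of 232 bp, with a score of 38, lay wholly within the series 1 peak of score 174. In Vps50 the series 1 peak at chr6:3595566-3595869, with a score of 31, shared 303 bp with a series 2 peak of score 18. In Vps11 the series 1 peak at chr9:44350367-44351376, with a score of 17, shared 220 bp with one of score 20. In Vps33a the series 1 peak at chr5:123562420-123563360, with a score of 19, shared 159 bp with one of score 21. The smallest overlap was in Vps13c, where the series 1 peak at chr9:67890871-67891925, with a score of 13, shared 93 bp with one of score 17. All 5 are Vps genes. In Snx25 the nearest peaks of the series were 380 bp apart and in Vps13a 441 bp apart. By peak, 5 of 45 in series 1 (11.1%) and 5 of 64 in series 2 (7.81%) touched a peak of the other list. The same share over all peaks of each list was not computed, so nothing can be read from these shares about the members.

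Most member peaks had a score below 20. A score of at least 20 was reached by 18 of 45 peaks in series 1 (40.0%, beside 55.8% of the whole list) and by 28 of 64 in series 2 (43.8%, beside 35.7%). Scores of at least 50 were confined to the peaks of Vps13d and Vps36 named above, in series 1. With peaks of at least 20 alone, 10 members were hit in both series (15.4%, beside 3.30% of all genes). These were Vps36, Vps33a, Vps50, Vps53, Vps13a, Vps13b, Vps13d, Snx14, Snx25 and Snx29. Series 2 peaks were narrow, with a median of 226.5 bp against 663 bp in series 1, as in the whole lists, where the medians were 222 and 483 bp. With peaks of at least 250 bp alone, 16 members were hit in series 2, beside 7.37% of all genes, and 12 in both (18.5%, beside 3.84%).

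The strand was known for 43 members, of which 24 had a peak, so positions along the gene could be measured for 30 peaks of series 1 and 46 of series 2. Member peaks of series 1 lay toward the 5′ end. Only 9 of 30 had their midpoint beyond the middle of the gene (exact Clopper-Pearson 95% interval of the share 14.7 to 49.4%), whereas 62.2% of 4138 peaks in all genes of known strand did. The median position was 28.3% of the span from the 5′ end, against 60.9%. Within genes of 100 kb or more, 59.1% of all series 1 peaks lay beyond the middle. In series 2 the member share was 22 of 46 (47.8%, interval 32.9 to 63.1%), against 59.6%, with a median position of 48.3% against 58.9%. That interval includes 59.6%, and with peaks scoring at least 20 alone the series 2 member share was 57.9%. Intervals cover counting error only, and peaks of the same gene are not independent.

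Counted by gene, the median peak lay in the part nearer the 5′ end in 12 of 16 members in series 1 (36.9% of all genes) and in 7 of 19 in series 2 (36.8%, beside 39.6% of all genes). The difference between the series was not tested. In series 1, 7 of 30 member peaks fell within the first 10% of the span (23.3%), against 4.59% of peaks in all genes and 7.82% in genes of 100 kb or more. These are few peaks, and Vps13d gave more than 1 of them. In series 2 the count was 1 of 46 (2.17%) against 5.34% of peaks in all genes, also a gap of too few peaks to read as a difference. The series 1 peaks closest to a 5′ end were those of Vps53, at 0.920 kb, Vps33a, at 3.01 kb, Vps4b, at 4.58 kb, and Snx14, at 5.36 kb with a score of 47. The peaks farthest along their genes in series 1 were in Vps50, at 92.6% of the span, Vps4b, at 91.6%, Vps41, at 91.1%, and Vps4a, at 89.7%.

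**Figure D4:**
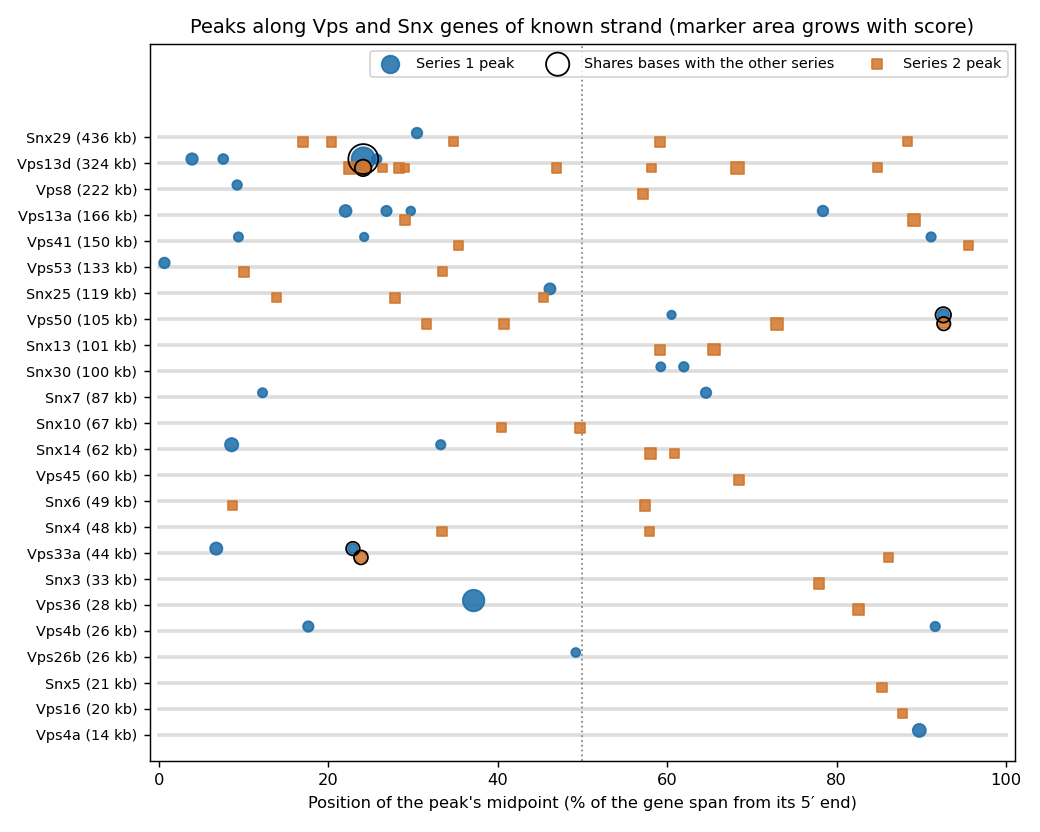
Position of each peak's midpoint along 24 Vps and Snx genes of known strand, as % of the gene span from its 5′ end, with genes ordered by length. Circles are series 1 peaks, squares series 2 peaks, marker area grows with the score, and black rings mark peaks that share bases between the series. In series 1, 21 of 30 peaks lie left of the middle, and rings occur in Vps13d, Vps50 and Vps33a.

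Other genes of endosomal sorting, 63 partners written down by complex, gave counts close to those of the Vps and Snx genes. Series 1 hit 24 of them (38.1%) and series 2 hit 27 (42.9%), with 16 shared (25.4%), and the densities were 12.5 and 14.7 peaks per Mb. ESCRT partners were hit in both in 5 of 22 cases. Among these Tsg101, the ESCRT-I subunit that recognises ubiquitinated cargo, was covered over 5.71% and 0.605% of its span, and the others were Stam, Vta1, Pdcd6ip and Mvb12b. None of the Chmp genes, which encode the ESCRT-III filament proteins, was hit in both. Of the 5 genes of the WASH complex, which builds actin on retromer domains, Washc2, Washc3 and Washc4 were hit in both.

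The PI3-kinase group, which makes or converts the phosphoinositides that PX domains bind, had 4 of 8 hit in both: Pik3c3, Pik3r4, Uvrag and Pikfyve. Pikfyve, the kinase that turns endosomal PI3P into PI(3,5)P2, had 5 and 4 peaks over 3.51% and 2.55% of its span, with highest scores of 32 and 71. Ccdc93 of the CCC complex, which acts with retriever, was covered over 3.46% and 1.31%, and was the only 1 of 12 CCC genes hit in both. Ap3b1 of the AP-3 coat was likewise hit in both. Among sorted receptors Sorl1 and Egfr were hit in both, while Igf2r and Sort1, which retromer retrieves, were hit in series 2 alone. Neither Tgfbrap1 nor Vipas39, partners of the tethers, had a peak.

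The neighbourhood and the cell type bear on these values as follows. The spans of 14 members overlap another protein-coding gene, but of the 109 member peaks only 1, in Vps13d, also touched such a gene, Dhrs3. Of 9 medullary epithelial markers, Krt5 and Itga6 had peaks in both series, Trp63 in series 1 and Relb in series 2, whereas Epcam, Krt14, Krt8, Ccl21a and Cd40 had none. None of 8 thymocyte markers had a peak. Among all 23 markers of thymocytes, fibroblasts, endothelium, myeloid cells and B cells, 4 had a peak in either series and 2 in both, with covered shares of at most 1.76%. Of all protein-coding genes, 27.4% had a peak in either series and 8.42% in both, so lists this short do not tell cell types apart. The markers of other cell types hit in both were Fbn1, a fibroblast marker, with highest scores of 141 and 38, and Flt1, an endothelial marker, with 35 and 30. Itgam, a myeloid marker, was hit in series 1 alone and Csf1r in series 2 alone. The part of these other cell types in the values of the Vps and Snx genes was not tested.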

How the data were processed

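Nano-ChIP-seq of H3K36me3 gave 2 ChIP libraries and 3 inputs, sequenced as paired reads of 75 bp per the labels. Per the submitters' processing notes, the tools were Bowtie2, SAMtools and MACS2 and the build mm10. Their versions and settings were not given in the sources used. The names of the peaks, per the file contents, show that the series 1 ChIP was called against 2 inputs and the series 2 ChIP against 1, each library on its own. The authors deposited a whole-number score per peak whose meaning is not stated; scores were used to describe, rank and filter peaks within a list. Reads of the inputs were not analysed here.

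A gene was counted as hit when at least 1 bp of a peak lay within its RefSeq span on GRCm38.p6 (chromosomes 1 to 19, X and Y). Strand and start sites came from the RefSeq promoter table. No read counts are given, so precision rests on 2 libraries, and nothing says that the libraries came from separate mice. No test was made. The members, the complexes, the partner and marker lists and the 6 motifs were chosen with earlier results of these data known. All members could be named, those without a peak by complex and the 5 longest of these with their length, and partner genes when hit in both series; Igf2r, Sort1, Tgfbrap1, Vipas39 and the Chmp genes were named after their values were seen. Counting was checked on simulated intervals. Python 3.11.15, numpy 2.4.6, pandas 2.3.3, scipy 1.17.1 and matplotlib 3.10.9 were used.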

Additional observations from a re-analysis of the deposited data

How the results depend on the processing

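Counts were repeated under other settings. When peaks scoring below 20 were dropped, 13 genes were hit in series 1 (beside 10.9% of all genes). There were 10 in both (15.4%, beside 3.30%), and 1 held coinciding peaks. When those scoring below 50 were dropped, 2 were hit in series 1 (beside 1.48% of all genes) and 0 in series 2 (beside 0.763%). Then 0 were hit in both (beside 0.0868%) and 2 in either, and 0 held coinciding peaks. With peaks of at least 250 bp, 16 were hit in series 2 (beside 7.37%) and 3 held coinciding peaks. The shares of all genes hit in either series or holding coinciding peaks were not computed at these settings. With 1 library left out no count in both series exists. The count of hit genes is then that of the remaining library, 24 to 30, in place of 17 in both and 37 in either, and says nothing about stability. The median covered share moved to 0.82% in series 1 and 0.417% in series 2 with peaks scoring below 20 dropped, and to 0.97% in series 2 with spans widened by 1 kb. The other 31 of 46 alternatives stayed near the values given. Near meant counts within 1.5 times, shares within their interval and medians within the spread of the series. Both totals include counts with 1 library left out, which are no check, so the 31 cannot be read as a tally of stability. They also include a larger minimum overlap of peak and span, under which every member count was unchanged. The share of peaks beyond the middle of the gene was 34.6% in series 1 and 52.8% in series 2 without Vps13d, a setting chosen after seeing the data. No paired analysis was possible because the inputs have no file used here and the results come from no test. Unknown depth and the number of libraries limit every value.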
